A study of Mus musculus with 16 samples.

Results

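Quadriceps muscle mRNA of aged mice fed ursolic acid was compared with that of aged mice fed tomatidine, the pair of dietary compounds the study examined in age-related muscle atrophy. The comparison took the 6 mice of the ursolic acid diet and the 5 mice of the tomatidine diet, 11 of the 16 mice in the series, and all 25697 probes of the array. The ursolic acid chow held 0.27% (w/w) of the compound and the tomatidine chow 0.05% (w/w), so the doses differed and every difference is between these 2 diets as fed. The other 5 mice ate the control chow without either compound. All 16 were male C57BL/6 mice, aged 22 months at the start of feeding and 24 months at harvest of the quadriceps, 2 months later. Each array held the muscle of 1 mouse, and the mice were separate animals. No young mice were on these arrays, and whole muscle was used, so a lower signal could come from fewer cells of a type or from less RNA per cell, which cannot be told apart.

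Ursolic acid is a pentacyclic triterpenoid acid found in apple peel, whereas tomatidine is a steroidal alkaloid of green tomatoes that carries nitrogen in its ring system. Both compounds are known to inhibit atrophy and to support growth of skeletal muscle in mice. ATF4, a transcription factor of the cellular stress response that also promotes atrophy, was the subject of the study's work on these muscles. The genes below are ordered by role: first the genes that met the adjusted threshold, then lipid synthesis, fuel use and adipocyte genes, then matrix and immune genes, and then growth, translation and contractile genes.

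The values are deposited log2 signals, so a difference of 1 is a 2-fold change of signal. The arrays were closely matched, with medians from 8.02 to 8.03 and a correlation of 0.991 to 0.998 between any ursolic acid array and any tomatidine array. No array repeated another. A principal component analysis put 25.7% of the variance on its first axis. There, tomatidine mouse 4 lay far from every other mouse, at 14.6. Tomatidine mouse 3 came next at 7.11, but was close to control mouse 5 at 5.84. The 6 ursolic acid mice lay at −4.38 to 2.51 and the control mice at −6.34 to 5.84. The main results are also given without tomatidine mice 3 and 4, although mouse 3 was not clearly apart and control mouse 5 was kept. The fast fibre contractile genes averaged 13.1 to 13.2 in every ursolic acid and tomatidine muscle, and the liver markers Alb and Apoa1 averaged 7.95 and 7.97, at the dark end. The array's darkest probes read about 7.9, and 76.8% of probes averaged under 8.5, where a log2 difference may be compressed.

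Few genes separated the compounds once the number of probes was allowed for. A moderated linear model (limma) fitted to all 16 arrays gave 756 probes at an unadjusted p of 0.025 or less, 2.94% of all probes, where the threshold alone would give 642. Of these, 385 were higher with ursolic acid (1.50% of all probes) and 371 were lower (1.44%). With 1 probe for each of 16590 genes, 1.47% were higher and 1.57% lower, the shares to set beside the counts of each gene list. After Benjamini-Hochberg adjustment over all probes 3 remained at 0.1 or less, 0.0117% of those tested, and the next smallest adjusted p was 0.510. These 3, for Ak3, Ints9 and Ugt1a10, are the differences called between the diets. The other genes named below met the unadjusted threshold on at least 1 probe unless the text says otherwise. They are given with their adjusted p, and none of them passed the adjustment.

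The differences were small. Among the 756 probes the median size was 0.062 on the log2 scale, a 1.04-fold difference. Of these probes 65.6% averaged under 8.5, beside 76.8% of all probes, so the sizes may be compressed. Only 34 of them exceeded 0.25, and 30 of these 34 were lower with ursolic acid. For 76.0% of all probes the 95% interval of the difference lay between −0.1 and 0.1, and for 84.2% of the 5949 probes with a mean of 8.5 or more it lay between −0.25 and 0.25. The 6 ursolic acid values lay wholly above the 5 tomatidine values for 79 probes (0.307%) and wholly below them for 56 (0.218%).

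**Figure D1:**
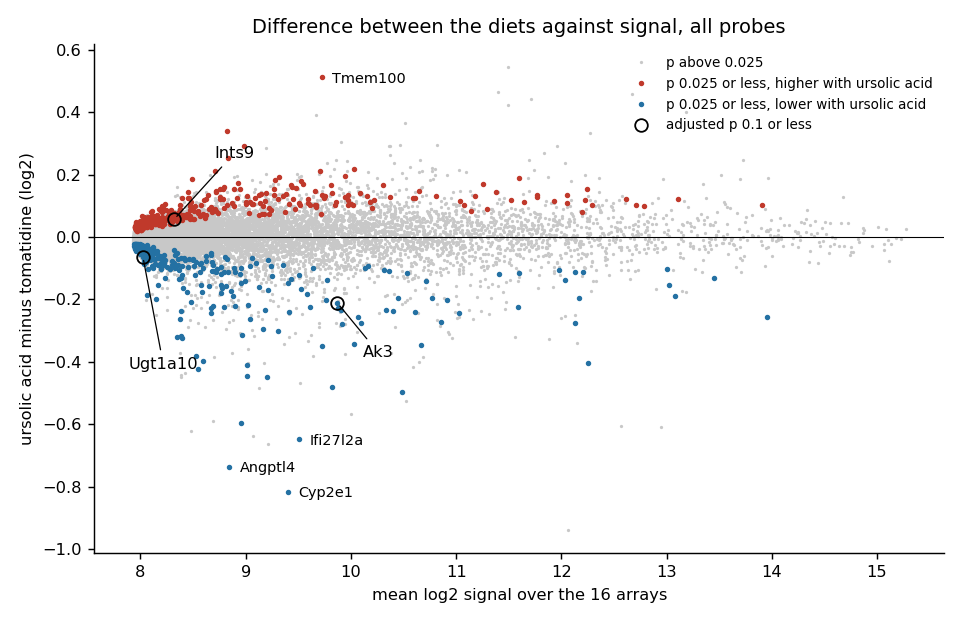
Log2 difference, ursolic acid minus tomatidine (vertical), against the mean log2 signal over the 16 arrays (horizontal), 1 point per probe. Coloured points are the 756 probes at p of 0.025 or less and circles mark the 3 probes at an adjusted p of 0.1 or less. The larger coloured differences lie mostly below 0, led by Cyp2e1, Angptl4 and Ifi27l2a.

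Ak3, adenylate kinase 3, transfers phosphate between GTP and AMP in the mitochondrial matrix. Its probe ILMN_2791121 read 9.78, 9.83, 9.85, 9.74, 9.78 and 9.78 in the 6 ursolic acid mice, against 10.04, 10.00, 9.95, 10.03 and 10.00 in the 5 tomatidine mice. Every ursolic acid mouse was below every tomatidine mouse. Ak3 was lower with ursolic acid by 0.21 ± 0.03 on the log2 scale (SE, difference −0.21, 95% interval −0.27 to −0.15, adjusted p = 0.0259), so the tomatidine signal was 1.16-fold that of ursolic acid. The 5 control mice read 9.78 to 9.94, which overlapped the ursolic acid mice and lay below all tomatidine mice. Against control, Ak3 differed by −0.04 with ursolic acid (adjusted p = 0.720) and by 0.17 with tomatidine (adjusted p = 0.0688). A dimmer Ak3 probe, ILMN_1244147, gave −0.14 ± 0.07 (adjusted p = 0.860), with overlapping groups.

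The Ak3 difference kept its size, −0.20 to −0.23, when each mouse was left out in turn, but not always its call, and with all mice the call was lost with an intensity trend in the variances (adjusted p = 0.448), the adipocyte mean as a covariate (0.125) or the matrix mean as a covariate (0.254). The adjusted p was 0.105 without ursolic acid mouse 5, 0.104 without tomatidine mouse 1, 0.152 without tomatidine mouse 4 and 0.132 without tomatidine mouse 5. Without tomatidine mice 3 and 4 together the difference was −0.22 (adjusted p = 0.287). Of the other 13 creatine and adenylate kinase genes measured, 1 had a p of 0.025 or less, the brain mitochondrial creatine kinase Ckmt1 (−0.048, adjusted p = 0.775). The list's median was −0.03, beside 0.00066 over all 16590 genes.

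Ints9 encodes a subunit of Integrator, the nuclear complex that cleaves the ends of small nuclear RNAs. The probe ILMN_2990144 read 8.33 to 8.36 in the ursolic acid mice and 8.27 to 8.29 in the tomatidine mice, without overlap. Ints9 was higher with ursolic acid by 0.057 ± 0.0076 (SE, adjusted p = 0.0259), a 1.04-fold difference that was small but large beside SDs of 0.0093 and 0.0082. This probe read under 8.5 in every mouse, where differences and SDs may be compressed. Control mice read 8.33 to 8.36, so tomatidine again stood apart, with −0.063 against control (adjusted p = 0.0234) and −0.0057 for ursolic acid against control (adjusted p = 0.886). The other Ints9 probes did not share the difference, with 0.022 (adjusted p = 0.934) and −0.0069 (adjusted p = 0.976). The call was lost without ursolic acid mouse 5 (adjusted p = 0.105), tomatidine mouse 3 (0.115), tomatidine mouse 4 (0.152) or tomatidine mouse 5 (0.132). It was also lost without tomatidine mice 3 and 4 together (0.569), with the 2 treated groups only (0.233), with an intensity trend (0.884) and with the adipocyte (0.158) or matrix (0.254) covariate.

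Ugt1a10 encodes a glucuronosyltransferase, an enzyme that conjugates lipophilic compounds to glucuronic acid. Its probe ILMN_2930203 was near the dark end of the array, at 7.99 to 8.01 in the ursolic acid mice and 8.03 to 8.08 in the tomatidine mice, again without overlap. Ugt1a10 was lower with ursolic acid, with a difference of −0.064 ± 0.0098 (SE, adjusted p = 0.0795). The control mice read 8.0 to 8.03, between the treated groups. Genes of the Ugt1a locus share most of their exons, and which transcripts this probe can bind was not tested. The adjusted p exceeded 0.1 on leaving out any single mouse other than tomatidine mouse 2 (0.0343), up to 0.387 without tomatidine mouse 4, and was 0.998 without tomatidine mice 3 and 4 and 0.415 with the 2 treated groups only.

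**Figure D2:**
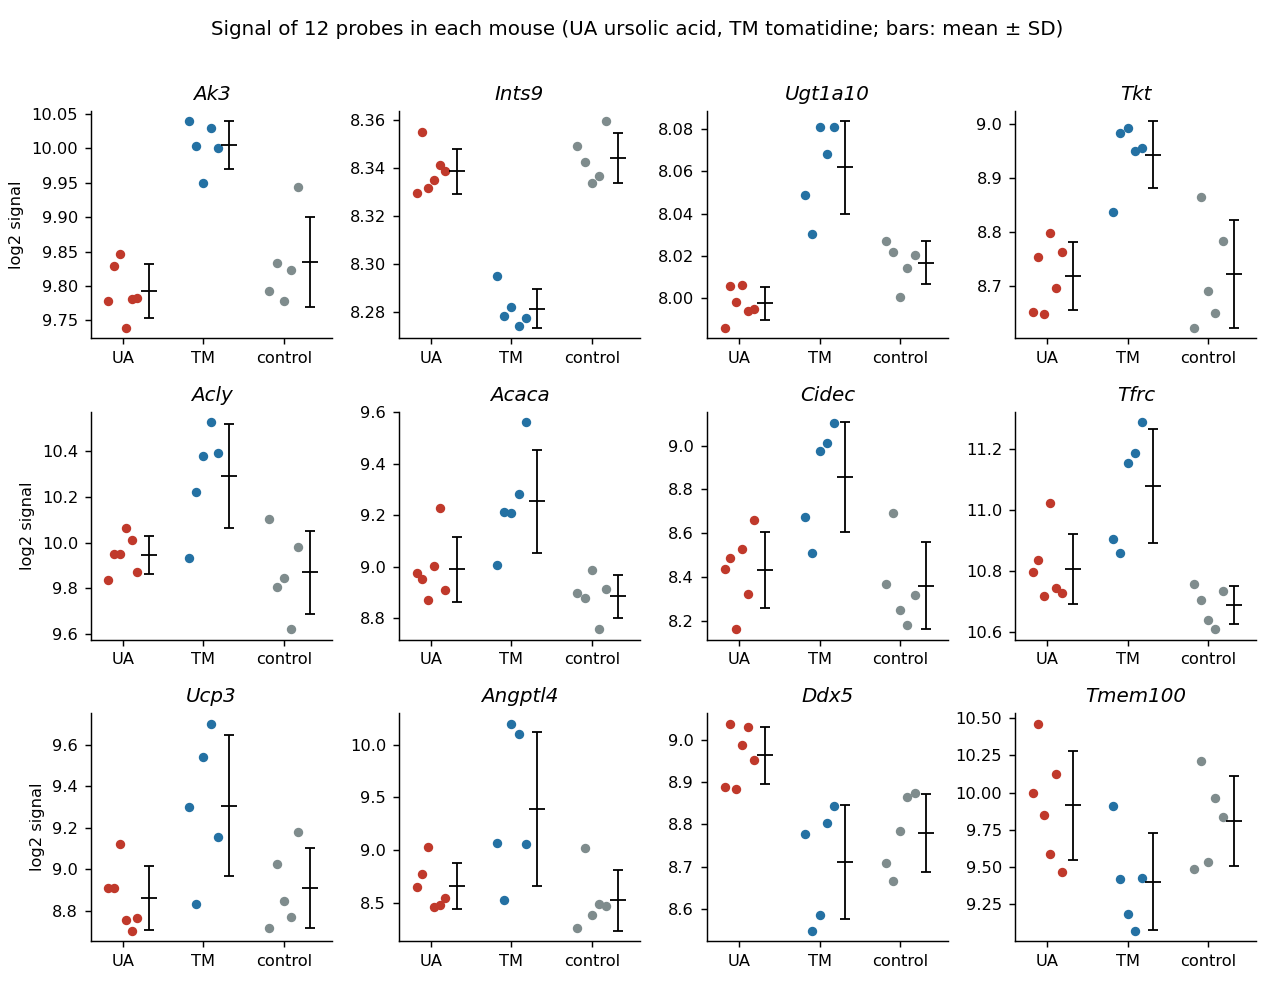
Log2 signal of 12 probes (vertical axes, scaled per gene and not from 0) in each mouse on the ursolic acid diet (UA, 6 mice), the tomatidine diet (TM, 5 mice) and the control diet (5 mice). Bars are mean ± SD. Ak3, Ints9, Ugt1a10, Tkt and Ddx5 have no overlap between UA and TM, whereas for Angptl4 tomatidine mice 3 and 4 stand apart at 10.20 and 10.10.

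Several genes of fatty acid synthesis had lower signals in ursolic acid muscles than in tomatidine muscles. The pathway turns citrate into acetyl-CoA, malonyl-CoA and long-chain fatty acids, at the cost of NADPH that the pentose phosphate pathway helps to supply. Of 20 measured genes of fatty acid and triglyceride synthesis, 4 were lower and 1 was higher at p of 0.025 or less, where 1.57% of all genes were lower and 1.47% higher. The list's median difference was −0.03, and 13 of the 20 genes lay below 0. No gene of the list passed the adjustment.

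Acly, ATP citrate lyase, makes cytosolic acetyl-CoA. It read 9.84, 9.95, 9.95, 10.06, 10.01 and 9.87 in the ursolic acid mice, against 9.93, 10.22, 10.38, 10.53 and 10.39 in the tomatidine mice. Of the 5 tomatidine mice, 4 were above every ursolic acid mouse, and tomatidine mouse 1 lay among them. The difference was −0.34 ± 0.10 (adjusted p = 0.764).

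Acaca, acetyl-CoA carboxylase 1, makes malonyl-CoA in the committed step. Its mean was 8.99 ± 0.13 in the ursolic acid mice (SD, n = 6) and 9.25 ± 0.20 in the tomatidine mice (SD, n = 5). The groups overlapped through ursolic acid mouse 5 at 9.23 and tomatidine mouse 1 at 9.0. The difference was −0.26 ± 0.08 (adjusted p = 0.764). Thrsp, a cofactor of lipogenesis, differed by −0.23 ± 0.08 (adjusted p = 0.784), and tomatidine mice 4 and 5 were highest at 9.18 and 9.04.

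Elovl6, which lengthens palmitate, was dim but did not overlap, at 8.0 to 8.08 with ursolic acid and 8.09 to 8.12 with tomatidine (difference −0.058, adjusted p = 0.764). Scd2, a stearoyl-CoA desaturase, ran the other way at 0.067 ± 0.02 (adjusted p = 0.764). The probe of Fasn, fatty acid synthase, read close to the dark end and gave 0.022, short of the threshold (adjusted p = 0.910). Scd1, the main desaturase of adipose tissue and liver, gave −0.27, also short of it (adjusted p = 0.919). Without tomatidine mice 3 and 4 the list had 4 lower and 1 higher gene, with a median of −0.026, but Acly was no longer among the 4. In that fit Acly was at −0.23 and Acaca at −0.27, and the adjusted p was 0.998 for both.

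Tkt, transketolase of the pentose phosphate pathway, had one of the 12 smallest p values, with an adjusted p of 0.510. It read 8.65, 8.75, 8.65, 8.80, 8.70 and 8.76 with ursolic acid, against 8.84, 8.98, 8.99, 8.95 and 8.96 with tomatidine, with no overlap. The difference was −0.22 ± 0.04, and it was −0.21 without tomatidine mice 3 and 4. Control mice read 8.62 to 8.86, like the ursolic acid mice. The other Tkt probes, near the dark end, gave −0.0099 and −0.0047. Of the 8 measured genes of this pathway, Tkt alone had a p of 0.025 or less, and the list's median was −0.05.

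Some genes of fuel selection, known to rise in fasting or to respond to the fatty acid receptors (PPARs), also had lower means, and here the tomatidine mice were divided. Angptl4 encodes a secreted inhibitor of lipoprotein lipase. It read 8.64, 8.77, 9.03, 8.46, 8.47 and 8.54 in the ursolic acid mice, against 9.07, 8.53, 10.20, 10.10 and 9.05 in the tomatidine mice. Tomatidine mice 3 and 4 were far above all others, and mouse 2 was as low as the ursolic acid mice. The difference was −0.74 ± 0.26 (adjusted p = 0.780) and it shrank to −0.23 (adjusted p = 0.998) without these mice.

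Ucp3, a carrier of the inner mitochondrial membrane in muscle, was measured by a pair of probes that moved together. The brighter read 8.91, 8.91, 9.12, 8.76, 8.70 and 8.76 with ursolic acid and 9.30, 8.83, 9.54, 9.70 and 9.15 with tomatidine. In 4 tomatidine mice it exceeded every ursolic acid mouse. The differences were −0.45 ± 0.13 (adjusted p = 0.764) and −0.32 ± 0.08 (adjusted p = 0.764), and they were −0.23 and −0.20 without tomatidine mice 3 and 4.

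Txnip, a thioredoxin-binding protein that restrains glucose uptake, differed by −0.41 ± 0.12 (adjusted p = 0.764). It read 11.85 to 12.51 with ursolic acid and 12.16 to 12.71 with tomatidine, where mouse 2 was the low one. Pdk4, the kinase that shuts pyruvate out of the mitochondrial oxidation pathway, differed by −0.61 ± 0.28 (adjusted p = 0.860), a difference that met neither threshold. Tomatidine mouse 2 was lowest at 11.90 while the other 4 read 13.13 to 13.72, and the ursolic acid mice read 12.23 to 12.65. The Pdk4 difference was −0.32 without tomatidine mice 3 and 4. Of the 18 genes of this list 3 were lower and 0 higher at p of 0.025 or less, beside 1.57% and 1.47% of all genes, and without tomatidine mice 3 and 4 none was lower or higher. The 27 genes of fatty acid uptake and beta-oxidation had 1 lower (Ucp3) and 1 higher (Hadh, 0.036), with a median of 0.02. Car14, a membrane carbonic anhydrase, differed by −0.48 ± 0.15 (adjusted p = 0.764), and by −0.27 without those mice.

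Markers of fat cells had lower means in part. Adipocyte RNA reaches whole muscle from the fat between its fibres, and Adipoq, Cidec and Plin1 are among the defining genes. Cidec, which fuses lipid droplets, read 8.44, 8.49, 8.16, 8.53, 8.32 and 8.66 with ursolic acid and 8.68, 8.51, 8.98, 9.01 and 9.10 with tomatidine. All but tomatidine mouse 2 were above every ursolic acid mouse, and the difference was −0.42 ± 0.12 (adjusted p = 0.764). Adipoq, the adipocyte hormone adiponectin, differed by −0.45 ± 0.18 (adjusted p = 0.835) and overlapped. Cyp2e1, a cytochrome P450 that adipocytes and hepatocytes express, had the largest difference of the 756 probes, −0.82 ± 0.33, with an unadjusted p at the limit itself (adjusted p = 0.845). It spanned 8.77 to 9.70 with ursolic acid, against 9.02, 9.32, 10.29, 11.08 and 10.87 with tomatidine. It passed the threshold in 3 of the 16 fits that left out 1 mouse, and gave −0.44 (adjusted p = 0.998) without tomatidine mice 3 and 4.

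The other adipocyte markers showed little. Of 29 measured, 4 were lower and 1 was higher, beside 1.57% and 1.47% of all genes, with a median of −0.03 and differences from −0.82 to 0.09. The count was 1 lower and 1 higher without tomatidine mice 3 and 4, with a median of −0.055. Plin1, Fabp4 and Retn read about 8 in both groups, near the dark end of the array. Lep, leptin, gave 0.09 (adjusted p = 0.983) and Plin4, a lipid droplet coat protein, gave −0.25 (adjusted p = 0.855, and −0.16 without those mice), neither at the threshold. The list's mean was 8.98 to 9.22 in the ursolic acid mice, 9.11 to 9.32 in the tomatidine mice and 8.98 to 9.24 in the control mice. With this mean as a covariate Acly was at −0.35 (adjusted p = 0.765), Tkt at −0.18 (adjusted p = 0.730) and Ucp3 at −0.44 (adjusted p = 0.765). Cidec, itself in the list, was at −0.24 (adjusted p = 0.765), Pdk4 at −0.41 (0.865) and Thrsp at −0.17 (0.797). Cdo1, the cysteine dioxygenase that is abundant in fat and liver, was at −0.23 (adjusted p = 0.792) beside −0.41 ± 0.13 without the covariate. Whether fat content accounts for any of these differences was not tested.

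**Figure D3:**
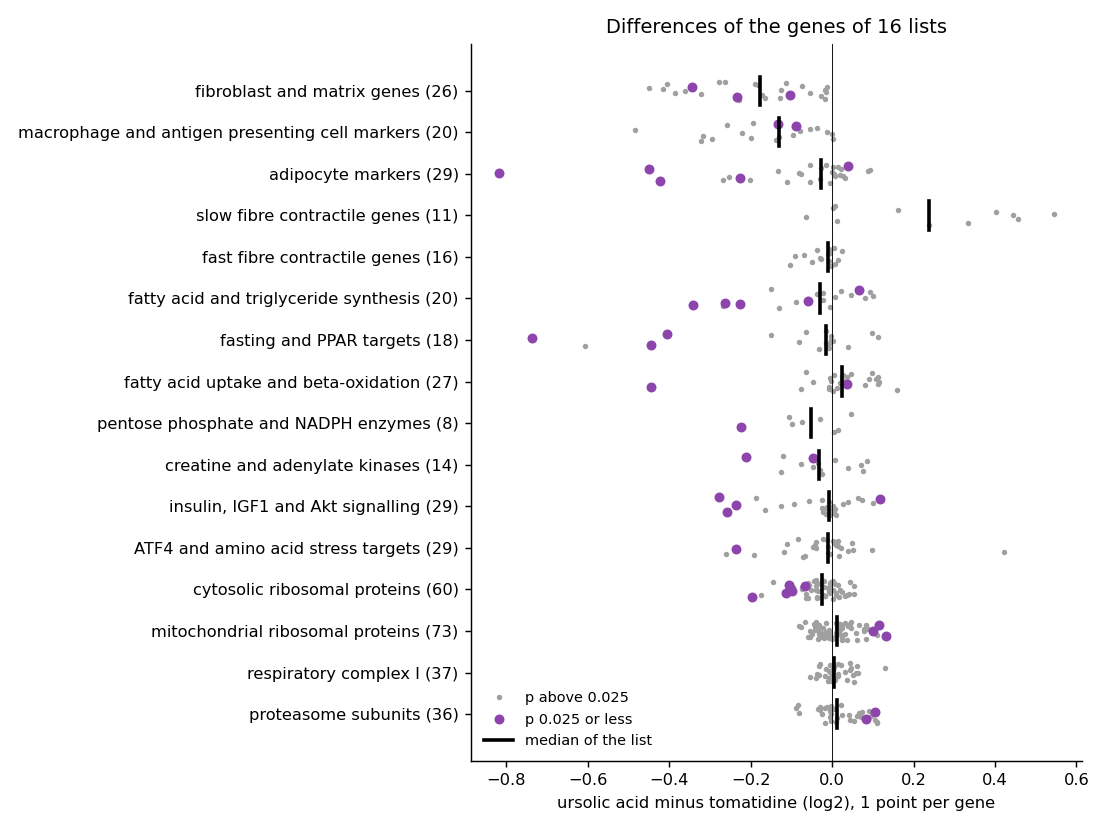
Log2 difference, ursolic acid minus tomatidine (horizontal), of every measured gene in 16 lists, with the number of genes in parentheses. Each point is 1 gene by its brightest probe, large points have p of 0.025 or less, and black bars are list medians. The matrix list lies wholly below 0 (26 of 26 genes), while respiratory complex I is centred on 0.

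Extracellular matrix and immune cell genes had lower means with ursolic acid, and this rested on tomatidine mice 3 and 4. All 26 measured fibroblast and matrix genes lay below 0, where 8094 of all 16590 genes did. Their median was −0.18 beside 0.00066 over all genes. At p of 0.025 or less 3 were lower, beside 1.57% of all genes. These were Col4a2, a basement membrane collagen chain (−0.35 ± 0.11, adjusted p = 0.764), Pdgfra, the growth factor receptor that marks muscle fibroblasts (−0.23 ± 0.08, adjusted p = 0.780), and Col3a1, a fibrillar collagen (−0.10 ± 0.04, adjusted p = 0.814). These were −0.17, −0.10 and −0.02 without tomatidine mice 3 and 4. The list's mean was 9.27 to 9.52 in the ursolic acid mice and 9.37 to 10.08 in the tomatidine mice, where mice 3 and 4 were the top 2. Without those mice the median was 0.0091, with 15 of 26 genes above 0 and none at p of 0.025 or less.

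Macrophage and antigen presenting cell genes behaved alike. Of 20, 18 were below 0 and 2 were lower at p of 0.025 or less, beside 1.57% of all genes. These were Cd163, a haemoglobin scavenger receptor (−0.13), and Tyrobp, a signalling adaptor of myeloid cells (−0.09). They gave −0.05 and −0.04 without tomatidine mice 3 and 4. The median of −0.13 fell in size to −0.0015 without tomatidine mice 3 and 4. Adgre1, the defining macrophage antigen, read 8.04 with ursolic acid and 8.07 with tomatidine on average, and lymphocyte markers read about 8.0 in every mouse.

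Other genes with large differences follow. Of 13 hepatocyte and plasma protein genes 1 was lower and 1 higher, beside 1.57% and 1.47% of all genes, with 7 above 0 and a median of 0.0026. Of 11 neutrophil markers none was at the threshold. Hp, the haemoglobin-binding plasma protein haptoglobin, had 3 probes at −0.60, −0.40 and −0.38 (adjusted p of 0.780, 0.807 and 0.780). Its brightest probe read 8.38 to 8.91 with ursolic acid and 8.97, 8.67, 9.85, 9.84 and 9.22 with tomatidine, so mouse 2 alone overlapped. The Hp probes gave −0.24, −0.12 and −0.17 without tomatidine mice 3 and 4. Ifi27l2a, an interferon-induced gene, differed by −0.65 ± 0.22 (adjusted p = 0.780) and by −0.40 without those mice, whereas 22 of 33 interferon-stimulated genes lay above 0 and no other reached the threshold. Mt1, a metal-binding stress protein, had the largest difference of any gene, −0.94 ± 0.45, but missed the threshold (adjusted p = 0.860). It read 11.37 to 12.59 with ursolic acid, and tomatidine mice 3 and 4 stood at 13.94 and 13.71, without which the difference was −0.18. Gsta3, a glutathione transferase, gave −0.32 ± 0.10 (adjusted p = 0.764) with the same mice among the 3 highest and −0.18 without them. Its dimmer probe gave 0.012. The probe ILMN_2759484, which has no gene name here, gave −0.50 ± 0.18 (adjusted p = 0.780), and −0.27 without those mice.

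Across the 30 probes lower by more than 0.25, tomatidine mice 3 and 4 were the top 2 of their group in 16, and neither mouse 1 nor mouse 2 was ever the highest. They were the top 2 for 22.4% of the 371 lower probes and for 10.9% of all probes. The median of the 30 was −0.34 with all mice and −0.23 without both of these, which kept all 30 below 0 and left 3 at p of 0.025 or less. The 30 were picked as lower on arrays that mostly stayed in that fit, and the fit had fewer mice. Neither count can therefore show how stable the 30 are.

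**Figure D4:**
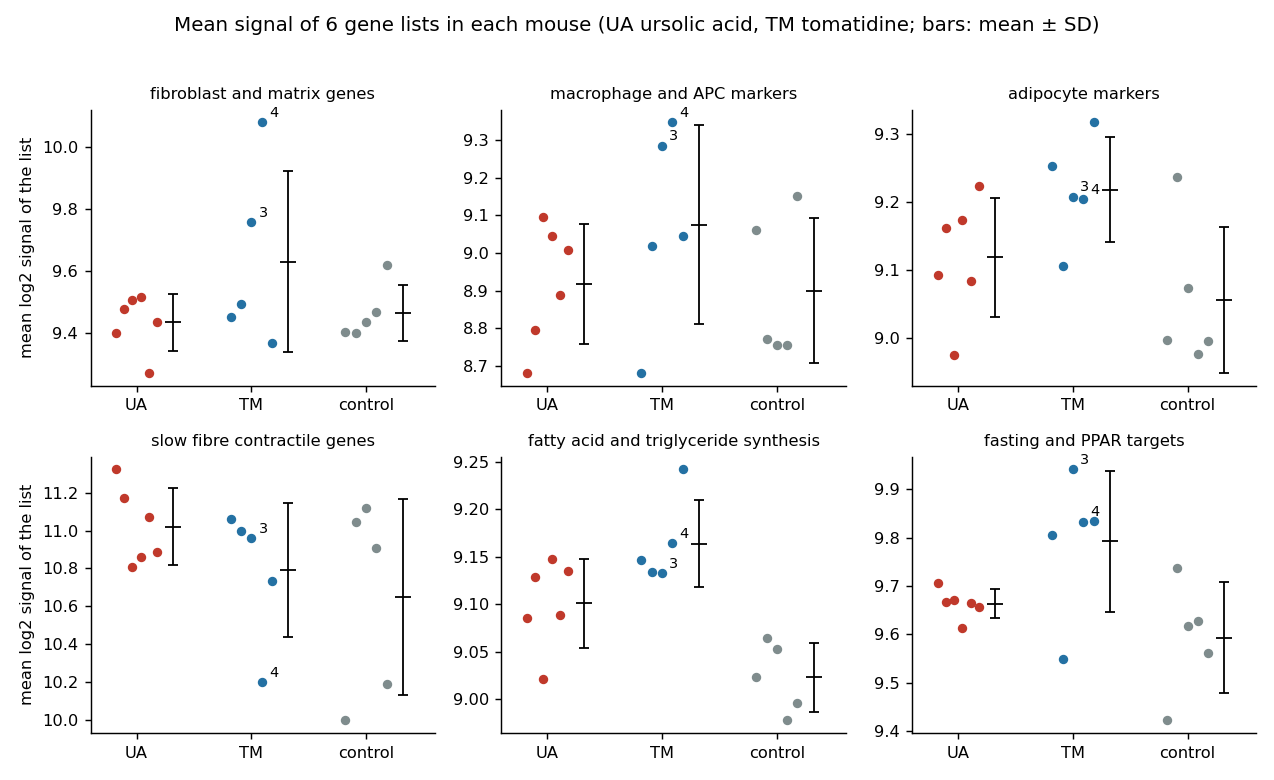
Mean log2 signal of 6 gene lists (vertical axes, not from 0) in each mouse on the ursolic acid (UA), tomatidine (TM) and control diets, with mean ± SD; APC means antigen presenting cells. The numbers mark tomatidine mice 3 and 4, which are highest for the matrix and macrophage lists, while mouse 4 is lowest of its group for slow fibre genes.

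Genes with higher signals in ursolic acid muscles had smaller differences, and 4 of the 34 larger than 0.25 were of this kind. Tmem100, a membrane protein of endothelial cells, had the largest of these at 0.51 ± 0.19 (adjusted p = 0.786). It read 10.00, 10.46, 9.85, 9.59, 10.13 and 9.47 with ursolic acid and 9.91, 9.42, 9.18, 9.07 and 9.43 with tomatidine, with wide overlap through tomatidine mouse 1. The difference was 0.33 without tomatidine mice 3 and 4. The 17 endothelial markers themselves had 0 genes at the threshold and a median of 0.02. Tekt1, a filament protein of cilia and flagella, gave 0.34 ± 0.11 and 0.19 ± 0.07 on its 2 probes.

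Ddx5, an RNA helicase that serves splicing and the myogenic regulator MyoD, separated the groups. It read 8.89, 9.04, 8.88, 8.99, 9.03 and 8.95 with ursolic acid and 8.78, 8.55, 8.58, 8.80 and 8.84 with tomatidine, so all 6 ursolic acid mice were above all 5 tomatidine mice. The difference was 0.25 ± 0.06 (adjusted p = 0.764) and it stayed at 0.24 without tomatidine mice 3 and 4. A dimmer second probe gave 0.014 (adjusted p = 0.891). Pik3ip1, an inhibitor of phosphatidylinositol 3-kinase, differed by 0.29 ± 0.08 (adjusted p = 0.764), with tomatidine mice 3 and 4 lowest at 8.55 and 8.66 and a difference of 0.14 without them.

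H4c6, a histone H4 gene, did not overlap and differed by 0.21 ± 0.06 (adjusted p = 0.764). Rbbp7, a histone-binding subunit of chromatin complexes, gave 0.22 ± 0.08 on its strongest probe, and its other 3 probes lay above 0 as well. Mllt3, a subunit of the super elongation complex, differed by 0.19 ± 0.06, Tmed4 of early secretory vesicles by 0.21 ± 0.08, and Tom1 of endosomal sorting by 0.19 ± 0.07. Rapgef1, an exchange factor for Rap1, gave 0.19 ± 0.05 (0.12 without tomatidine mice 3 and 4) and Rab40c, a small GTPase, gave 0.18 ± 0.05.

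The smallest p values on this side came from narrow spreads. Get4, which helps insert tail-anchored proteins into the endoplasmic reticulum, read 9.61 to 9.67 with ursolic acid and 9.50 to 9.58 with tomatidine (0.10 ± 0.02, adjusted p = 0.510). Mtmr14, a muscle phosphoinositide phosphatase, read 9.11 to 9.21 with ursolic acid and 9.02 to 9.07 with tomatidine (0.11 ± 0.02, adjusted p = 0.510). Ppp6c, the catalytic subunit of protein phosphatase 6, read 10.62 to 10.73 with ursolic acid and 10.51 to 10.60 with tomatidine (0.12 ± 0.02). Gemin6 of the SMN complex differed by 0.11 ± 0.02 and, on a second probe, by 0.07 ± 0.03. Cd28, a T cell receptor of costimulation, read about 8.0 in both groups. On the lower side Lgi2, a secreted neuronal protein, and Fkbp10, a collagen chaperone, were similarly dim, with differences of −0.075 and −0.069. The Fkbp10 difference was −0.046 without tomatidine mice 3 and 4.

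Growth signalling genes differed in places. Eif4ebp1 encodes the translation repressor 4E-BP1, a target of mTORC1 and ATF4. It read 10.15, 10.37, 10.26, 10.01, 10.43 and 9.92 with ursolic acid, against 10.54, 10.40, 10.47, 10.36 and 10.38 with tomatidine. The groups overlapped, and the difference was −0.24 ± 0.09 (adjusted p = 0.780). Tomatidine mice 3 and 4, at 10.47 and 10.36, were not the top pair of their group, and mouse 4 was the lowest. Against control both diets had lower means, by −0.44 with ursolic acid (adjusted p = 0.171) and −0.20 with tomatidine (adjusted p = 0.529).

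Deptor, an inhibitor of mTOR, differed by −0.28 ± 0.08 (adjusted p = 0.764), Igfbp4, which binds insulin-like growth factors, by −0.26 ± 0.09 and −0.26 ± 0.11 on its 2 probes (adjusted p = 0.780 and 0.850), and Tsc2, the GTPase activator that restrains mTORC1, by 0.12 ± 0.04 (adjusted p = 0.780). The Igfbp4 probes gave −0.10 and −0.12 without tomatidine mice 3 and 4. A second Deptor probe and a second Tsc2 probe gave −0.022 and −0.024. In all, 3 of 29 insulin, IGF1 and Akt genes were lower and 1 was higher, beside 1.57% and 1.47% of all genes, with a median of −0.0085. The count was 1 lower and 0 higher without tomatidine mice 3 and 4. Nck2, an adaptor between receptors and actin, differed from control by −0.22 with ursolic acid (adjusted p = 0.195) and by 0.0077 with tomatidine (adjusted p = 0.988). It read 9.64 to 9.91 with ursolic acid, 9.89 to 10.07 with tomatidine and 9.89 to 10.06 with control (difference between the diets −0.23 ± 0.05, adjusted p = 0.632).

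Among 29 targets of ATF4 and amino acid stress, Eif4ebp1 was the one gene at p of 0.025 or less, and the median was −0.01. Without tomatidine mice 3 and 4 no gene of this list was at the threshold on its brightest probe, and the median was 0.0032. For Eif4ebp1 those mice were not the top pair of their group, and that fit had fewer mice. Asns, asparagine synthetase, gave −0.12 (adjusted p = 0.851). The Atf4 probes gave −0.07 and −0.13 (adjusted p = 0.936 and 0.949). Neither gene met the threshold. Of the genes the study singles out on these arrays, the tRNA synthetase genes Lars, Nars, Mars1 and Sars differed by between −0.04 and 0.06 on each probe. The amino acid transporter genes Slc38a2 and Slc6a9 gave −0.26 to −0.0043 on 3 probes and 0.05 on 1. The initiation factor genes Eif2s2 and Eif3c differed by between −0.06 and 0.09. Fndc5, the precursor of irisin, gave −0.03 and 0.14, the 3 probes of Il15, a myokine, gave −0.03 to −0.05, and Ckmt2, the muscle mitochondrial creatine kinase, gave 0.08 and −0.0085. None of these met the threshold with all mice. In the fit without tomatidine mice 3 and 4, 1 Il15 probe gave −0.07 at an unadjusted p of 0.00084 (adjusted p = 0.998).

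Tfrc, the transferrin receptor that brings iron into cells, was an exception. Its first probe read 10.80, 10.84, 10.72, 11.02, 10.74 and 10.73 with ursolic acid and 10.91, 10.86, 11.15, 11.19 and 11.29 with tomatidine. Ursolic acid mouse 4 lay among the tomatidine mice. The differences on its 2 probes were −0.27 ± 0.07 (adjusted p = 0.764) and −0.24 ± 0.07 (adjusted p = 0.764), and they were −0.21 and −0.19 without tomatidine mice 3 and 4. Among the 18 iron handling genes Ireb2, the iron regulatory protein 2, was the other at the threshold (0.042). On the brightest probe of each, neither was at it without tomatidine mice 3 and 4.

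Ribosomal protein genes differed slightly. Of 60 cytosolic ribosomal protein genes, 6 were lower and 0 were higher, beside 1.57% and 1.47% of all genes, and 44 lay below 0 (median −0.03). Examples were Rpl28 (−0.10 ± 0.03, adjusted p = 0.764), Rps15a (−0.10 ± 0.03) and Rpl5 (−0.20 ± 0.07). Rpl28 read 12.87 to 13.00 with ursolic acid, 12.97 to 13.05 with tomatidine and 13.05 to 13.18 with control. Of 73 mitochondrial ribosomal protein genes, 3 were higher and 0 lower, and 41 lay above 0 (median 0.01), with Mrpl22 at 9.65 to 9.74 with ursolic acid and 9.56 to 9.65 with tomatidine and no overlap (0.10 ± 0.02, adjusted p = 0.764). When tomatidine mice 3 and 4 were left out, 5 cytosolic genes were lower, with a median of −0.02, and 2 mitochondrial genes were higher, with 39 of the 73 below 0 and a median of −0.0027. Of 36 proteasome genes, Psme2 (0.10) and Psma7 (0.08) were higher at the threshold, beside 1.47% of all genes.

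Slow fibre genes had the largest list median of the 45, but none met the threshold. Of 11 genes 10 lay above 0, with a median of 0.24, led by the troponin C gene Tnnc1 (0.54 ± 0.43, adjusted p = 0.910) and the myosin light chain gene Myl2 (0.46 ± 0.38). Their means were 10.8 to 11.3 in the ursolic acid mice, 10.2 to 11.1 in the tomatidine mice and 10.0 to 11.1 in the control mice. Tomatidine mouse 4 was the low one, and the median was 0.07 without tomatidine mice 3 and 4. Quadriceps contains few slow fibres, and their share in each dissected piece was not measured. The 16 fast fibre genes had a median of −0.0095 and 0 genes at the threshold.

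In several other groups the brightest probe of every gene had a p above 0.025. These were respiratory complex I (37 genes, median 0.0046), complexes II to V (41 genes, 0.0045), glycolysis and glucose transport (30, −0.0054), cytosolic aminoacyl-tRNA synthetases (22, 0.0097), translation initiation factors (35, 0.0056), autophagy (27, 0.013), sterol synthesis (21, 0.0044), neuromuscular junction (20, 0.00049) and circadian clock genes (18, 0.0075). Among the dimmer probes of these genes, those of Wipi1 (0.16), Eif2b5 (0.10), Tpi1 (−0.15) and Colq (−0.025) met the threshold. For complex I the gene differences ran from −0.05 to 0.13. Of 21 atrophy and FoxO genes, Eif4ebp1 was again the one at the threshold. In the smaller fit without tomatidine mice 3 and 4 none was.

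The position of each diet relative to control differed between genes. The control mice are shared, so the values are given side by side. At an adjusted p of 0.1 or less ursolic acid had 2 probes against control (0.00778% of probes) and tomatidine 25 (0.0973%). Of the 756 probes, 187 had a p of 0.025 or less for tomatidine against control, 149 for ursolic acid against control and 426 for neither. Of the 371 lower probes, 109 had tomatidine above control at p of 0.025 or less, and of the 385 higher probes 76 had tomatidine below control. The 756 were picked on the same treated arrays, so these counts are partly set by that choice. The share of all probes at this threshold against control is not given here, and which diet moved was not tested. Among the lower genes, Acly differed from control by 0.08 with ursolic acid and 0.42 with tomatidine, Cidec by 0.07 and 0.49, Tkt by −0.0038 and 0.22, and Txnip by −0.0085 and 0.40. Among the higher genes, Mllt3 differed from control by −0.0012 with ursolic acid and −0.20 with tomatidine, while Ddx5 differed by 0.18 with ursolic acid and −0.07 with tomatidine. None of the differences from control in these 6 genes passed an adjusted p of 0.1.

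**Figure D5:**
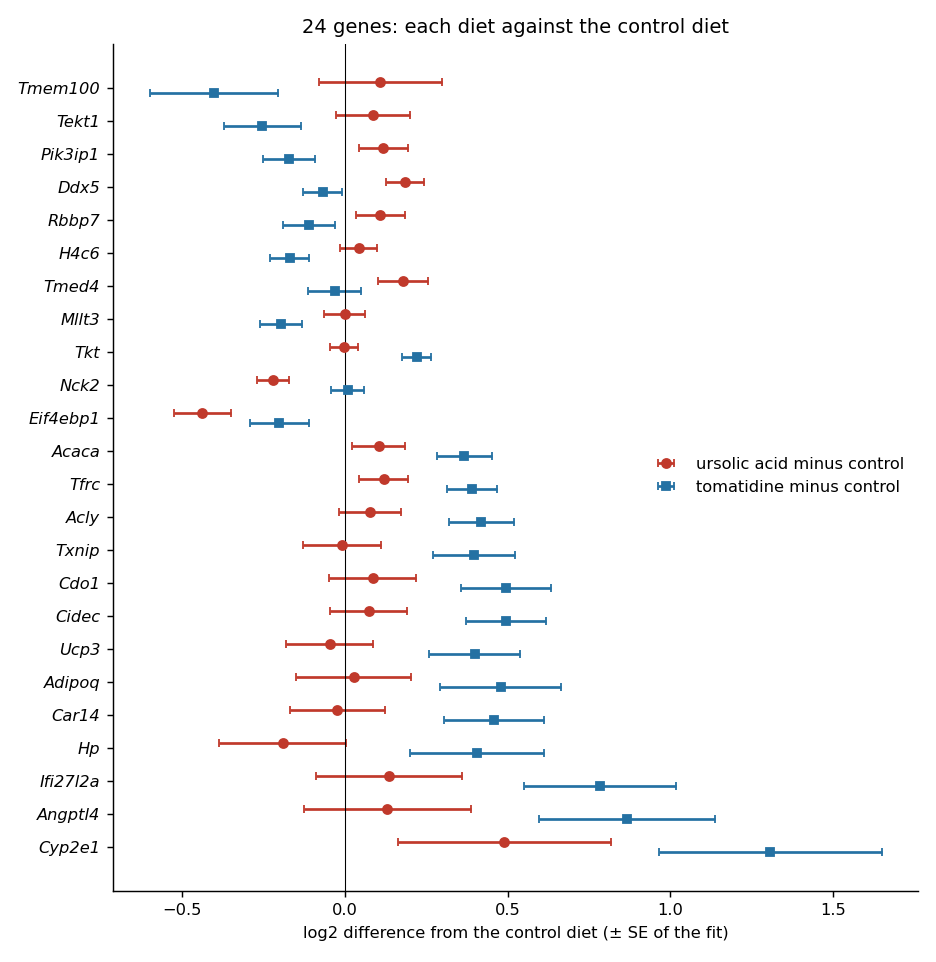
Log2 difference from the control diet (horizontal, ± SE of the fit) of 24 genes with ursolic acid (circles) and tomatidine (squares). The genes run from the highest ursolic acid minus tomatidine difference at the top (Tmem100) to the lowest at the bottom (Cyp2e1), and both diets share the same 5 control mice. From Acaca downward tomatidine lies between 0.37 and 1.31, while ursolic acid lies between −0.19 and 0.49.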

How the data were processed

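Total RNA from quadriceps was measured on Illumina Mouse Ref-8 BeadChip arrays with 1 colour, and per the labels and the study's methods the RNA was extracted with TRIzol and RNeasy columns and the arrays were read on an iScan. The authors took the signals from BeadStudio and deposited log2 values on a common scale. How the background was corrected and the arrays were normalized is unknown here. The deposited log2 values were analysed as they stand, with no filter on dim probes, and array number and dim signals limit the precision.

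Groups came from the sample labels. Every column was matched to 1 mouse and 0 columns were left over. The platform annotation named 23978 probes by 1 symbol and 0 by several. Of the other 1719 probes, 156 were named through gene tables of the paper and 1563 stayed unnamed.

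A linear model with a mean for each diet was fitted to all 16 arrays with limma (version 3.58.1, R 4.3.3), leaving 13 residual degrees of freedom, and variances were moderated with eBayes. The contrast was ursolic acid minus tomatidine, 2-sided, with Benjamini-Hochberg adjustment over 25697 probes. The thresholds, p of 0.025 and adjusted p of 0.1, are those of the study's methods. SE and 95% intervals come from the moderated fit. No set test was run.

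A total of 45 gene lists with 1084 measured members are described by counts and medians, 1 probe per gene (highest mean signal). The genes named were the 3 adjusted calls, the 12 largest differences and 6 smallest p values in each direction, the genes the paper names for these arrays, and up to 4 members of each list with the smallest p. Other list members and second probes are given as context, chosen after their values were seen. Comparison, members and lists were chosen with earlier results of these data known. The fit was tested on simulated data. Alternatives changed the arrays in the fit, the variance model, the test (the methods' t-test included), the normalization, the filter on dim probes and covariates.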

Additional observations from a re-analysis of the deposited data

Results flagged for a closer look

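The 3 probes called between the diets are listed here because the test of the difference itself passed: Ak3 at −0.21, Ugt1a10 at −0.064 and Ints9 at 0.057 on the log2 scale.

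Among the named probes, 8 of 136 sets of values from 1 diet held a mouse far from the rest of its group by Dixon's criterion, about as many as chance gives, since it marks about 1 in 20 groups. In the ursolic acid group these were Rapgef1 in mouse 4 (11.88, others 11.59 to 11.68), Acaca in mouse 5 (9.23, others 8.87 to 9.0), Rps15a in mouse 3 (8.48, others 8.35 to 8.39) and Rps15 in mouse 1 (11.94, others 12.07 to 12.13). In the tomatidine group they were Rab40c in mouse 3 (8.97, others 9.21 to 9.27), Cd28 in mouse 4 (7.97, others 8.0 to 8.01), Tkt in mouse 1 (8.84, others 8.95 to 8.99) and Lgi2 in mouse 5 (8.07, others 8.14 to 8.16).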

How the results depend on the processing

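All 756 probes at p of 0.025 or less kept their direction in every setting in which they were fitted. They were picked on these same arrays, and settings that change only the test or the variance model leave each difference as it was. The kept direction was thus largely set in advance and cannot show stability. The number at an adjusted p of 0.1 or less, 3 with all arrays, was 1 with the 2 treated groups only (Ak3), 1 among probes of mean 8.5 or more (Ak3), and 0 with an intensity trend, with the mouse number as a replicate block, without tomatidine mice 3 and 4, and with the adipocyte mean or the matrix mean as a covariate, the last an alternative chosen after seeing the data. It was 2 by the methods' t-test, which gave 728 probes at p of 0.025, and 3 after either other normalization. Leaving out 1 mouse gave 0 (without ursolic acid mouse 5, tomatidine mouse 4 or tomatidine mouse 5) to 5 (without tomatidine mouse 2) probes at the adjusted threshold, 623 to 1079 at p of 0.025, 303 to 534 higher and 315 to 545 lower. The filter on dim probes left 197 of 5949 probes, 103 higher and 94 lower. Same-numbered ursolic acid and tomatidine mice had deviation correlations over 0.1 for 4 of 5 numbers (0.115 to 0.324) and −0.097 for mouse 2, and 4 of 10 mice correlated best with their own number. No source says that a number is shared, so the mice are not taken as paired. The replicate block gave 757 probes, 435 higher and 322 lower, with an adjusted p of 0.311 for Ak3, 0.326 for Ints9 and 0.465 for Ugt1a10. Small differences among genes the paper names changed sign: Nars with array weights (0.00049), quantile normalization (0.0026), the replicate block (0.0089) or the slow-fibre covariate (0.0085), Sars with the replicate block (0.014), Fndc5 with the adipocyte covariate (0.084), and Lars without tomatidine mice 3 and 4 (−0.014) or with the matrix covariate (−0.011). On leaving out 1 mouse the second Atf4 probe ranged from −0.26 to 0.016, Fndc5 from −0.11 to 0.015, Lars from −0.0024 to 0.038, Nars from −0.025 to 0.032 and Sars from −0.041 to 0.030. The 11 list medians recomputed in this way moved by less than the spread between mice. That spread includes tomatidine mice 3 and 4, so it cannot show that a median is stable. Without these mice the matrix median went from −0.18 to 0.0091 and the macrophage median from −0.13 to −0.0015. The slow fibre median went from 0.24 to 0.07, while that of fatty acid and triglyceride synthesis went from −0.030 to −0.026.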

Other observations

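Genes of the circadian clock, heat shock and regenerating fibres are given here as values, and none of those named met p of 0.025 on its probe with the highest signal. Of 30 heat shock and co-chaperone genes 1, not named here, was lower at that threshold and 0 were higher, beside 1.57% and 1.47% of all genes. Dbp, a clock-driven transcription factor, read 11.17, 11.54, 12.04, 11.75, 11.26 and 12.35 with ursolic acid and 10.55, 11.75, 10.55, 11.38 and 11.86 with tomatidine (difference 0.47 ± 0.27, adjusted p = 0.879). Nfil3, a repressor that binds the same sites, lay the other way at −0.40 ± 0.18 (adjusted p = 0.854), and Bhlhe40, another repressor of the clock, gave 0.25 ± 0.12 (adjusted p = 0.860). The hour of tissue collection is not given in the sources used here.

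Hspa1a, the inducible chaperone HSP70, read 8.60 to 9.31 with ursolic acid and 8.77, 9.81, 11.29, 8.84 and 9.17 with tomatidine, so mouse 3 was far above the rest (difference −0.66 ± 0.39, adjusted p = 0.880). The same mouse was highest for Srxn1, an antioxidant reductase, at 11.37, against 9.51 to 10.03 with ursolic acid (difference −0.57 ± 0.26, adjusted p = 0.860). Another Srxn1 probe gave −0.09, and 0.0078 without tomatidine mice 3 and 4. For Myh8, the perinatal myosin of regenerating fibres, tomatidine mouse 4 was highest at 9.91 and ursolic acid mouse 3 came next at 9.18 (difference −0.39 ± 0.21, adjusted p = 0.865). Haemoglobin and Alas2, markers of red cells, were highest in tomatidine mouse 5, at 14.90 for Hba-a1 and 9.93 for Alas2. Without tomatidine mice 3 and 4 the differences were −0.34 for Hspa1a, −0.21 for Srxn1, −0.04 for Myh8, 0.30 for Dbp, −0.22 for Nfil3 and 0.08 for Bhlhe40.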
